A study of Mus musculus with 32 samples.

Results

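The proximal tubule, the first segment of the nephron, takes back most of what the glomerulus filters, and 10 genes that encode its carriers and uptake receptors were followed in kidney cortex. They were the glucose carriers Slc5a1 and Slc5a2, the monocarboxylate carrier Slc5a12, the phosphate carriers Slc34a1 and Slc34a3, the amino acid transport genes Slc6a19, Slc7a7 and Slc3a1, and the receptors Lrp2 (megalin) and Cubn (cubilin). They were picked by symbol and not by a rule on measured level, though earlier results of these data were known. All 10 were found among the 32544 genes of the count table.

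RNA of the kidney cortex was sequenced in bulk after poly(A) selection from 32 mice of the C57BL/6J-Col4a3tm1Dec strain at 25 weeks of age, with 4 mice in each of 8 groups. Alport mice were Col4a3-/- and lacked a collagen IV chain of the glomerular basement membrane in every cell, and controls were Col4a3+/-, so that the controls also carried 1 null allele and no wild-type mice entered the comparison. Males and females of each genotype received vehicle or nicotinamide riboside (NR), a precursor of NAD+ that was mixed into a purified diet. Each group is named here by its sex, genotype and diet.

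Reabsorption in this segment runs on the sodium gradient kept by the basolateral sodium pump. Carriers in the brush border move glucose, lactate, phosphate or amino acids into the cell together with sodium, other carriers let them out on the blood side, and megalin with cubilin binds filtered proteins for endocytosis. Early convoluted and late straight parts of the segment carry different sets, with Slc5a2 in the early part and Slc5a1 in the late part.

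The libraries held 16621944 to 27778797 counts (median 22071395), and member counts ranged from 53 for Slc34a3 to 194035 for Slc34a1 in a mouse. The targeted gene, Col4a3, was measured at 54.6 to 83.2 CPM (counts scaled to the size of the library) in male Alport mice and 48.7 to 79.2 in female Alport mice, against 151 to 201 and 139 to 163 in vehicle-treated controls of the same sex. The male controls on NR did not separate from Alport mice: they had 59.3, 94.0, 75.2 and 160 CPM, and 2 of the 16 control libraries, mice 1 and 3 of that group, lay within the range of the male Alport libraries. The CPM ratio of Col4a3 to its partner chain Col4a4, a quantity chosen after that overlap was known, was 0.293 to 0.413 in the 16 Alport mice and 0.537 to 0.822 in the 16 controls, without overlap. Calls of members in comparisons that use the library labelled male control NR 1 or 3 are therefore also given without both. Correlations between pairs of members and with other single genes are given with them only.

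The cortical origin of the RNA was checked with marker lists. In vehicle-treated male controls, 20 proximal tubule enzymes summed to 64140 to 69505 CPM and 12 immune genes to 77.1 to 100 CPM. Of 7 adipocyte markers, Adipoq, Lep and Retn averaged under 0.5 CPM in every group, and Fabp4 and Pparg in none. Plin1 was not under 0.5 CPM in female controls on vehicle or NR. Cidec was not under it in female controls on NR or in Alport mice of either sex on NR. The 7 adipocyte markers summed to 11.3 to 19.5 CPM in vehicle-treated controls of both sexes and to 21.9 to 54.7 CPM in the mice of the other 6 groups. Within the male Alport NR group, mice 2 and 4 had mean log2 CPM over the 10 genes of 8.29 and 8.24, and mice 1 and 3 had 7.27 and 7.04. The group thus held a pair of high and a pair of low libraries, and values per mouse are given for it.

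Levels of different genes were compared per kilobase of transcript. In vehicle-treated male controls the Slc34a1 level was 1873 CPM per kilobase, followed by Slc3a1 at 346, Slc5a2 at 219, Lrp2 at 172, Slc6a19 at 114, Slc5a12 at 104, Slc7a7 at 101, Cubn at 58.5, Slc5a1 at 23.3 and Slc34a3 at 19.2. The order in vehicle-treated female controls differed only in that Slc5a12 (120) stood above Slc6a19 (109). Slc34a1, the main sodium-phosphate carrier of the brush border, was thus the most abundant member in both sexes, and Slc34a3, the other renal carrier of its family, the least.

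The promoters of the members were read for a motif of HNF4, a transcription factor that drives many proximal tubule genes. RefSeq promoters (GRCm38.p6, 250 bases before and 50 after a transcript start) were found for 8 of the 10 genes, 12 promoters in all. Slc5a2 and Slc5a12 had no promoter entry and were not searched. The HNF4 element CAAAGTCCA was present on either strand in 1 of the 12 (Slc3a1) and in 0.475% of all 32851 promoters. The 250 bases upstream of the start of Slc3a1, at chr17:85028097-85028346 on the plus strand, are shown as the promoter with the match, which is in capitals and begins at −39 from the start.
Slc3a1: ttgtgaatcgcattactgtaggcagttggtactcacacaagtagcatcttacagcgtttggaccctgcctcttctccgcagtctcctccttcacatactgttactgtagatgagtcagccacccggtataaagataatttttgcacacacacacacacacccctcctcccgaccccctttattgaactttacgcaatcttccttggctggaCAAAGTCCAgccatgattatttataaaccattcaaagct
A match describes letters only, and no binding was measured.

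The first comparison asked how reabsorption genes differ between Alport and control kidneys on vehicle. Of the 10 genes, 9 were lower in male Alport mice and 9 in female Alport mice at an adjusted p below 0.05 (edgeR quasi-likelihood test, Benjamini-Hochberg over all genes tested), and Slc5a1 was the gene not called in either sex. Against this stands a background in which 24.0% of 15286 genes in males and 21.8% of 15709 in females were called lower, and 50.8% and 45.7% were called in either direction. The same 9 genes had 4 Alport mice all below 4 controls in each sex, a pattern seen in the lower direction for 28.5% of genes in males and 23.7% in females. The median log2 fold change of the 10 was −1.07 in males and −0.92 in females, beside a median over all genes of −0.001 in either sex.

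**Figure D1:**
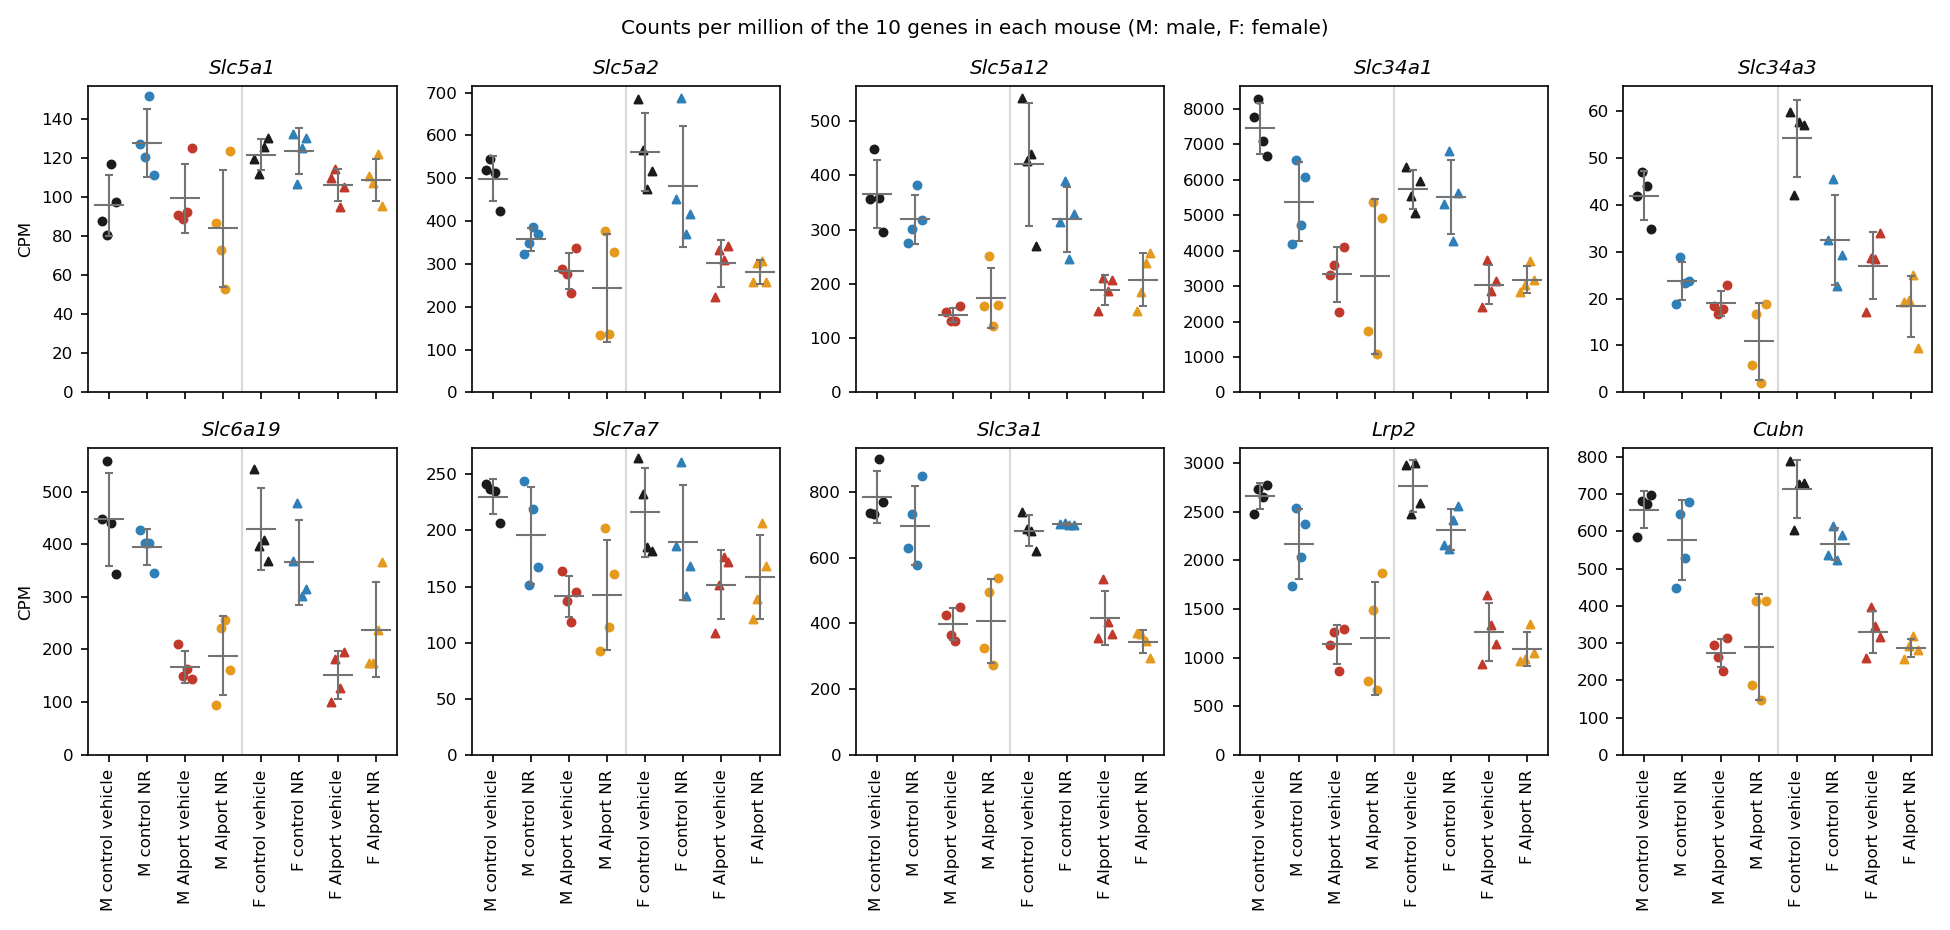
CPM of each of the 10 genes by mouse (points, 4 per group) in the 8 groups of sex, genotype and treatment, on a linear axis. Group means (lines) are drawn with standard deviations (bars). In 9 of the 10 panels the Alport vehicle points lie below the control vehicle points of the same sex, and in the Slc5a1 panel the groups overlap.

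Slc5a2 encodes SGLT2, the low-affinity carrier that recovers the bulk of filtered glucose. In males it was 518, 544, 512 and 422 CPM in controls and 288, 277, 233 and 336 CPM in Alport mice, and in females 686, 566, 474 and 517 against 222, 333, 308 and 341 CPM. Every Alport mouse was below every control of its sex. The log2 fold change was −0.73 ± 0.12 (SE, n = 4 against 4, edgeR adjusted p = 0.000251) in males and −0.86 ± 0.15 (adjusted p = 0.00103) in females.

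Slc5a1 encodes SGLT1, the high-affinity carrier that takes up glucose left by SGLT2. Its levels in males were 87.9, 80.8, 117 and 97.2 CPM in controls and 90.8, 88.8, 92.2 and 125 CPM in Alport mice, and in females 119, 112, 125 and 130 against 110, 115, 95.1 and 105 CPM. The groups overlapped in both sexes. The log2 difference was 0.14 (95% interval −0.15 to 0.43, adjusted p = 0.419) in males and −0.16 ± 0.08 (adjusted p = 0.118) in females. The female value passed the threshold in 1 of the 8 fits that left out a mouse, without Alport vehicle mouse 2 (−0.21, adjusted p = 0.0382). The CPM ratio of Slc5a2 to Slc5a1 was 4.34 to 6.74 in male and 3.78 to 5.75 in female vehicle controls, and 2.52 to 3.17 and 2.02 to 3.25 in vehicle-treated Alport mice, so the ranges were apart in each sex.

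Slc5a12, a low-affinity sodium-lactate carrier of the brush border, had 357, 449, 358 and 297 CPM in male controls and 148, 131, 132 and 159 CPM in male Alport mice. It fell by 58.5% in males (log2 fold change −1.27 ± 0.12, adjusted p = 2.86e-06), and by 1.11 ± 0.20 on the log2 scale in females (adjusted p = 0.00129), where controls ranged from 271 to 544 CPM and Alport mice from 151 to 212 CPM. Slc5a8, its high-affinity relative, fell by 49.9% in males and by 38.3% in females. Slc2a2 (GLUT2), the basolateral exit for glucose, fell by 0.66 and 0.68, while Slc2a1 (GLUT1) was called only in females (−0.30, and 0.05 in males). Slc5a10, a mannose and fructose carrier, was called in neither sex (−0.24 and −0.47). Among 9 further glucose and monocarboxylate carriers, 6 fell and 1 rose in males (median −0.65), and 7 fell and 1 rose in females (median −0.68).

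Slc34a1 encodes NaPi-IIa, which the parathyroid hormone and FGF23 pathways withdraw from the brush border. In vehicle-treated males it had 7770, 8292, 7107 and 6671 CPM in controls and 3323, 3608, 2281 and 4107 CPM in Alport mice. Female levels were 6357, 5557, 5056 and 5965 CPM in controls and 2412, 3740, 2868 and 3149 CPM in Alport mice. The distributions were apart in both sexes, with log2 fold changes of −1.08 ± 0.17 (adjusted p = 0.000208) in males and −0.87 ± 0.15 (adjusted p = 0.0009) in females.

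Slc34a3 encodes NaPi-IIc, a second renal carrier of the same family. Its male levels were 41.8, 47.1, 44.0 and 34.8 CPM in controls and 18.4, 16.6, 17.9 and 22.9 CPM in Alport mice, and its female levels 59.8, 42.1, 57.7 and 57.1 against 17.2, 28.8, 28.3 and 34.0 CPM. It fell by 1.06 ± 0.11 on the log2 scale in males (adjusted p = 8.48e-06) and by 0.97 ± 0.20 in females (adjusted p = 0.00394). The third gene of the family, Slc34a2, known mainly from intestine and lung, moved the other way and rose from 1.63 to 12.1 CPM in males (log2 fold change 2.98, adjusted p = 4.72e-07) and from 2.92 to 12.9 CPM in females (2.18, adjusted p = 0.000244). The CPM ratio of Slc34a1 to Slc34a2 was accordingly 3003 to 6093 in male controls and 170 to 504 in male Alport mice.

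Of the hormone side of phosphate handling, Kl (klotho, the FGF23 co-receptor) fell by 1.22 in males and by 1.13 in females, and Pth1r, the parathyroid hormone receptor, by 0.74 and 0.51. Fgfr1, the receptor that binds klotho, rose by 0.53 and 0.27 on the log2 scale. Slc20a1, a widely expressed phosphate carrier, rose in males (0.67, adjusted p = 0.0442) and was not called in females (0.27), and Slc20a2 fell in females (−0.23) and was not called in males (−0.17). Over the 12 further phosphate and sulfate genes, 5 rose and 5 fell in males (median 0.03), and 3 rose and 6 fell in females (median −0.31).

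Slc6a19, the brush-border carrier for neutral amino acids, had the lowest Alport to control ratio of the 10 genes in each sex. In males it had 447, 559, 439 and 343 CPM in controls and 211, 150, 164 and 145 CPM in Alport mice, and in females 543, 396, 409 and 369 against 101, 183, 127 and 195 CPM. These were decreases of 1.33 ± 0.16 (adjusted p = 2.17e-05) and 1.46 ± 0.22 (adjusted p = 0.000571) on the log2 scale. Tmem27 (collectrin), which brings this carrier to the membrane in kidney, fell by 0.96 in males and by 0.75 in females.

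Slc3a1 is the heavy subunit of the brush-border carrier for cystine and dibasic amino acids, and Slc7a9 is its light subunit. Slc3a1 had 736, 734, 902 and 769 CPM in male controls and 427, 366, 346 and 450 CPM in male Alport mice (log2 fold change −0.90 ± 0.12, adjusted p = 3.43e-05), and in females it fell by 0.68 ± 0.13 (adjusted p = 0.00179). Slc7a9 fell alongside, by 0.72 and 0.71, and the CPM ratio of heavy to light subunit was 3.48 to 4.88 in male controls and 3.22 to 4.12 in male Alport mice, which overlap.

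Slc7a7 is the light subunit of the basolateral exit for dibasic amino acids and pairs with Slc3a2. It had the smallest decrease of the 9 genes in each sex. Males had 242, 237, 236 and 207 CPM in controls and 163, 137, 118 and 145 CPM in Alport mice (log2 fold change −0.62 ± 0.10, adjusted p = 0.000213), and females 265, 233, 186 and 181 against 108, 152, 176 and 172 CPM (−0.47 ± 0.17, adjusted p = 0.0434). The female groups were separated by the narrow gap between 176 and 181 CPM, and the call was lost without Alport vehicle mouse 1 or 2 or control vehicle mouse 1 or 2, with adjusted p up to 0.114. Slc3a2 was not called in males (−0.06) and fell in females (−0.26, adjusted p = 0.0426), so the CPM ratio of Slc7a7 to Slc3a2 moved from 1.21 to 1.30 in male controls to 0.771 to 0.918 in male Alport mice. In females the ratio was 0.806 to 0.952 in controls and 0.603 to 0.861 in Alport mice, which overlap. Among the 19 further amino acid transport genes, 12 fell and 2 rose in males and 13 fell and 3 rose in females, with medians of −0.38 and −0.46. Slc7a8, Slc6a18 and Slc1a1, carriers for neutral and acidic amino acids, fell in both sexes, by 0.30 to 0.66.

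Lrp2 encodes megalin, the large endocytic receptor that carries the whole complex into the cell. Its levels were 2476, 2737, 2650 and 2777 CPM in male controls and 1125, 1268, 860 and 1293 CPM in male Alport mice, and 2980, 2480, 3008 and 2596 against 939, 1641, 1331 and 1136 CPM in females. It fell by 1.14 ± 0.14 (adjusted p = 2.17e-05) and 1.09 ± 0.17 (adjusted p = 0.000439) on the log2 scale.

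Cubn encodes cubilin, which binds albumin and relies on megalin and on Amn (amnionless) to enter the cell. It had 584, 681, 673 and 697 CPM in male controls and 294, 261, 226 and 313 CPM in male Alport mice, and 790, 605, 729 and 729 against 259, 397, 345 and 318 CPM in females. The decreases were 1.18 ± 0.12 (adjusted p = 3.46e-06) and 1.07 ± 0.14 (adjusted p = 0.00016). The CPM ratio of Lrp2 to Cubn lay between 3.40 and 4.85 in all 32 mice, with group medians of 3.74 to 4.31, so the levels of the receptors shifted by a similar factor.

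Their partners had smaller differences. Amn was not called in males (−0.31, adjusted p = 0.0528) and fell in females (−0.25, adjusted p = 0.0266). The adaptor Dab2 fell by 0.47 and 0.51, the chaperone Lrpap1 by 0.79 and 0.75, and the endosomal chloride transporter Clcn5 by 0.37 and 0.33. Of 15 further genes of the endocytic route, 6 fell and 2 rose in males and 7 fell and 3 rose in females (medians −0.23 and −0.16). The scaffold genes Pdzk1 (−0.94 and −0.96) and Slc9a3r1 (−0.52 and −0.53), which hold brush-border carriers in place, and the sodium carriers Slc9a3 (−0.73 and −0.87) and Slc4a4 (−0.68 and −0.64) fell in both sexes. In that list of 14 scaffold, sodium and water genes, 12 fell and 1 rose in each sex. The transcription factor Hnf4a (−0.83 and −0.81) was also lower, and of the 12 transcription factor genes of its list 8 fell and 1 rose in males and 7 fell and 1 rose in females (medians −0.54 and −0.47).

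**Figure D2:**
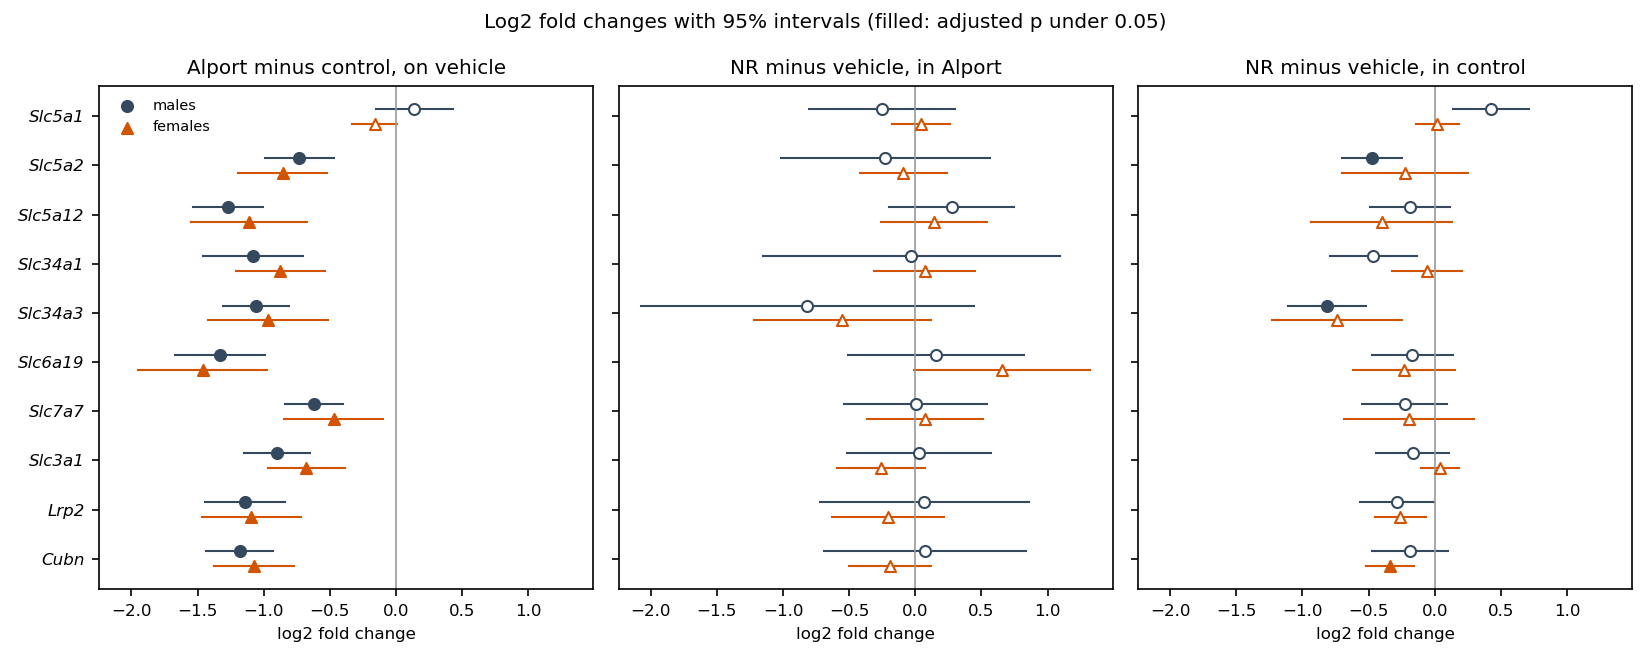
Log2 fold change of the 10 genes in the comparisons of disease and treatment, with 95% intervals from edgeR (4 mice against 4, males and females). Filled symbols passed the adjusted p. In Alport against control on vehicle 9 genes in males and all 10 in females lie below 0, and 9 in each sex are filled. All intervals for NR against vehicle in Alport mice span 0.

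In bulk cortex, fewer proximal tubule cells and less RNA of a gene per cell cannot be told apart. All 20 proximal tubule enzyme genes fell in males and 19 of 20 in females (medians −0.91 and −0.82), and their sum was 27248 to 42318 CPM in vehicle-treated male Alport mice. All 10 tubule injury genes rose in each sex, led by Havcr1 (6.43 and 5.74) and Lcn2 (6.48 and 5.21), with sums of 706 to 870 CPM in male controls and 6463 to 7824 CPM in male Alport mice. Fibroblast genes (9 of 9 in each sex) and immune genes (12 of 12 in males, 10 of 12 in females) also rose, as did Fabp4 and Pparg of the adipocyte list in each sex, 7 of 8 endothelial and 7 of 7 podocyte genes in males and 5 of 8 and 6 of 7 in females. Of 14 genes of the loop, distal tubule and collecting duct, 9 fell in males and 7 in females. The part of cell composition in the members' decreases was not tested.

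Relative to the mean log2 CPM of the 20 enzymes, the members did not all keep their place. Slc5a1 was higher in Alport mice by 1.07 in males and by 0.72 in females, with the 4 mice of each group apart. Slc5a2 was higher by 0.20 in males, also with the groups apart. Slc6a19 was lower by 0.39 and 0.62, apart in females only, and Cubn was lower by 0.26 in males, with the groups apart. These are differences of log2 values relative to the enzymes, given as a description without a test.

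**Figure D3:**
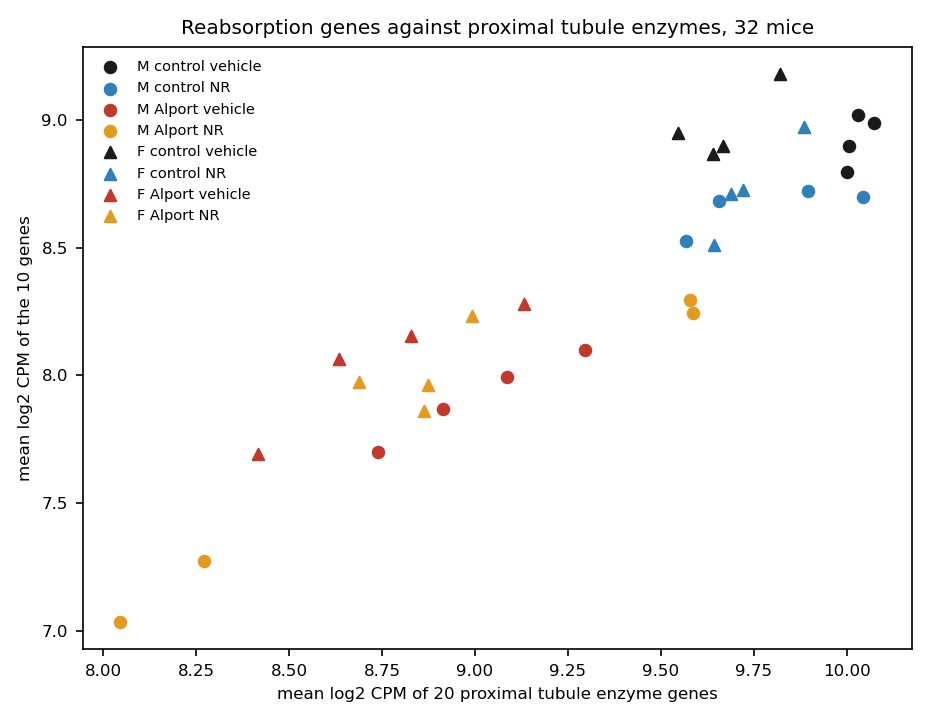
Mean log2 CPM of the 10 genes (vertical axis) against mean log2 CPM of the 20 proximal tubule enzymes (horizontal axis), 1 point per mouse, by group. The points follow a common line over the 32 mice, with male Alport NR mice 1 and 3 at the low end. Mice 2 and 4 of that group lie within the control range on the horizontal axis and below every control on the vertical axis.

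Over the 32 mice the mean of the 10 genes followed the mean of the 20 enzymes with a Pearson r of 0.929, and of 0.941 for deviations from the group means. Over the 30 mice without the libraries labelled male control NR 1 and 3, r was 0.928 and 0.950. Both are descriptions over mice that share library depth and tissue composition. Among the 45 pairs of members, r ranged from 0.201 (Slc5a1 with Slc6a19) to 0.981 (Lrp2 with Cubn), with a median of 0.789. Once group means were removed, it ranged from −0.406 for Slc5a1 with Slc6a19 to 0.937 for Slc34a1 with Cubn. Out of 13218 genes compared, those whose profile was among the 5 most like the members' mean included Slc2a12 (r = 0.988), F13b (0.968), Aadac (0.963) and Papss2 (0.954). Single members were most like Kl for Lrp2 (0.957), F13b for Cubn (0.963), Tcn2 for Slc34a1 (0.983), Dmgdh for Slc3a1 (0.969), Plekha7 for Slc6a19 (0.948) and Slc2a12 for Slc5a2 (0.931). Nox4 was most like Slc5a12 (0.931), Cdh16 most like Slc34a3 (0.921), Cpne4 most like Slc7a7 (0.885) and Tmem246 most like Slc5a1 (0.760), which had the lowest best match of the 10.

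The sexes were compared in the same vehicle-treated controls. At adjusted p below 0.05, 3 of the 10 genes differed, where 31.5% of 14990 genes did. Slc34a1 was higher in males (log2 difference 0.36 ± 0.09, adjusted p = 0.00916), and every male value exceeded every female value. Slc5a1 (−0.37 ± 0.10, adjusted p = 0.0132) and Slc34a3 (−0.39 ± 0.12, adjusted p = 0.0252) were lower in males, with overlapping groups. The Slc34a3 call was lost in 5 of 8 fits that left out a mouse (male control vehicle 1 or 4, female control vehicle 1, 3 or 4), with adjusted p up to 0.0647. The CPM ratio of Slc34a1 to Slc34a3 was 161 to 192 in males and 87.5 to 132 in females. No member's Alport to control difference was called as differing between the sexes in the sex by genotype interaction, in which 0.495% of 16152 genes were called. The largest of these interaction values was for Slc5a1 (0.33, 95% interval −0.02 to 0.68, adjusted p = 0.466).

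NR in Alport mice addressed whether the treatment changed these genes in diseased kidneys. In males 0 of the 10 genes and 0 of 15500 genes (0%) were called by edgeR, where 777 genes had an unadjusted p under 0.05, limma-voom also called 0 genes and DESeq2 called 62 genes, none a member. The count of 0 rested on NR mouse 1: without it edgeR called 375 genes, none a member, and without NR mouse 3 it called 1. In females 0 of 10 were called, where 0.458% of 15712 genes were (2590 at an unadjusted p under 0.05), 72 genes in all and 9 to 163 when a mouse was left out. The median log2 difference of the 10 was 0.02 in males and −0.02 in females, and the groups of 4 mice overlapped for all 10 genes in both sexes, while 3.42% and 9.18% of all genes had groups apart.

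The male intervals were wide, and the NR group was split. Slc34a1 had 1730, 5366, 1080 and 4921 CPM in male Alport NR mice, with mice 2 and 4 above all 4 vehicle-treated Alport males and mice 1 and 3 below them. Its log2 difference was −0.03 with a 95% interval of −1.15 to 1.10. Lrp2 showed the same order with 761, 1492, 665 and 1873 CPM (0.07, −0.72 to 0.86), and Cubn with 187, 413, 146 and 412 CPM (0.08, −0.69 to 0.84). The 20 enzymes followed this order too, with mean log2 CPM of 8.27, 9.58, 8.05 and 9.59 in mice 1 to 4. Mouse 1 had 11084 CPM of injury genes and 975 CPM of immune genes, and mouse 3, as low in the members, had 4327 and 189 CPM.

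Slc5a1 departed from that order, with 86.6, 73.1, 52.7 and 124 CPM in male Alport NR mice. Slc6a19 also departed from it, with 94.5, 241, 256 and 160 CPM in these mice (0.16, −0.51 to 0.83). In females it had 174, 174, 237 and 367 CPM with NR and 101, 183, 127 and 195 CPM with vehicle. The female log2 difference was 0.66 ± 0.29 (95% interval −0.01 to 1.32, adjusted p = 0.307) and did not pass the test. Slc34a3 had the lowest log2 difference in each sex, −0.82 in males (−2.07 to 0.44, adjusted p = 0.943) and −0.55 in females (−1.22 to 0.12, adjusted p = 0.379), with 5.91, 16.7, 1.97 and 18.9 CPM in male and 19.3, 19.6, 25.1 and 9.47 CPM in female Alport NR mice. Neither passed the test. The partner lists had 0 genes called with NR in Alport mice in either sex, as did the enzymes, injury and immune genes, whose medians were 0.01, −0.01 and −0.56 in males and 0.14, −0.89 and −0.76 in females.

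NR in control mice was compared with vehicle in the same way. In males 2 of the 10 genes were lower, where 1.48% of 14696 genes were called lower and 4.45% in either direction. Slc34a3 fell from 41.8, 47.1, 44.0 and 34.8 CPM to 18.9, 28.9, 23.4 and 23.7 CPM (log2 fold change −0.81 ± 0.13, adjusted p = 0.0113), and Slc5a2 from 518, 544, 512 and 422 to 323, 349, 387 and 370 CPM (−0.47 ± 0.10, adjusted p = 0.0313). In both genes each NR mouse was below each vehicle mouse, as was also so for Slc34a1 (4190, 6556, 4718 and 6090 CPM with NR, −0.46 ± 0.15, adjusted p = 0.102), while 6.01% of genes showed that pattern. Slc5a1 was the 1 member with a positive value, at 127, 121, 152 and 111 CPM (0.43 ± 0.13, adjusted p = 0.0882), and overlapped its controls. The CPM ratio of Slc5a2 to Slc5a1 was 2.54 to 3.32 with NR (2.90 and 3.32 in mice 2 and 4) and 4.34 to 6.74 with vehicle. In female controls and in Alport mice of either sex, this ratio overlapped between NR and vehicle. The remaining 6 genes had values between −0.29 (Lrp2) and −0.16 (Slc3a1) and were not called.

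Without the libraries labelled male control NR 1 and 3, the calls of Slc34a3 (−0.68, adjusted p = 0.0578) and Slc5a2 (−0.48, adjusted p = 0.0916) were lost. Slc7a7 was the 1 member called (−0.53, adjusted p = 0.036). That fit set only NR mice 2 and 4 against 4 vehicle mice, and over all genes it called 127 where the full fit called 654. For Slc7a7 the NR libraries left out had 244 and 219 CPM, and those kept had 151 and 168 CPM. Leaving out 1 mouse at a time kept Slc34a3 in 8 of 8 fits (adjusted p up to 0.0477), whereas the count of members called was 1 without NR mouse 1 or 3 or vehicle mouse 1, 2 or 3. The fit of all 32 mice called 0 members.

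Other tissue markers moved in the same male controls on NR. Of 10 injury genes, 4 rose (Krt20, Vcam1, Spp1 and Vim), with sums of 919 to 2104 CPM beside 706 to 870 CPM with vehicle. Of 8 endothelial genes, 7 rose (574 to 800 against 397 to 446 CPM), as did 4 of 9 fibroblast genes and 2 of the 9 immune genes tested (C1qa and C1qb). Of the 20 enzymes, 1 fell (Acsm2) and 1 rose (Gatm), and their median was −0.12. The 7 adipocyte markers summed to 21.9 to 54.7 CPM beside 14.3 to 19.2 CPM with vehicle, and neither of the 2 tested, Fabp4 and Pparg, was called (median 0.90). The part of these markers in the members' values was not tested. Of the partners, Slc3a2 rose (0.51, adjusted p = 0.0225) and Tmem27 (−0.55, adjusted p = 0.023) and Slc9a3 (−0.70, adjusted p = 0.0489) fell. Without the libraries labelled male control NR 1 and 3, none of these 3 was called (adjusted p of 0.105, 0.0849 and 0.215), 0 of 10 injury genes (919 to 1494 CPM), 2 of 8 endothelial genes (Pecam1 and Flt1, 574 to 597 CPM), 0 of 9 fibroblast genes and 0 of 11 immune genes were called, the adipocyte markers summed to 21.9 to 33.7 CPM, and the injury, fibroblast and immune medians were 0.80, 0.68 and 0.88.

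In female controls 1 of the 10 genes was lower with NR, where 2.29% of 14951 genes were called lower and 6.59% in either direction. Cubn went from 790, 605, 729 and 729 to 537, 616, 522 and 590 CPM (log2 fold change −0.34 ± 0.09, adjusted p = 0.0314), with overlap at the lowest vehicle mouse. This call was kept in 2 of 8 fits that left out a mouse. Slc34a3 had 32.5, 45.4, 22.7 and 29.3 CPM with NR and 59.8, 42.1, 57.7 and 57.1 CPM with vehicle (−0.74 ± 0.21, adjusted p = 0.0881), and without NR mouse 2 it was −0.94 with an adjusted p of 0.00772, when 3 members were called. The count of members called was 0 without NR mouse 1, 3 or 4 or vehicle mouse 1, 3 or 4. In these females 0 of 10 injury genes and 1 of 8 endothelial genes were called. The 20 enzymes summed to 59518 to 69889 CPM with NR and 49661 to 60539 CPM with vehicle, and the 7 adipocyte markers to 24.2 to 52.9 against 11.3 to 19.5 CPM, with neither of the 2 tested called (median 0.51). The part of these markers in the members' values was not tested.

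**Figure D4:**
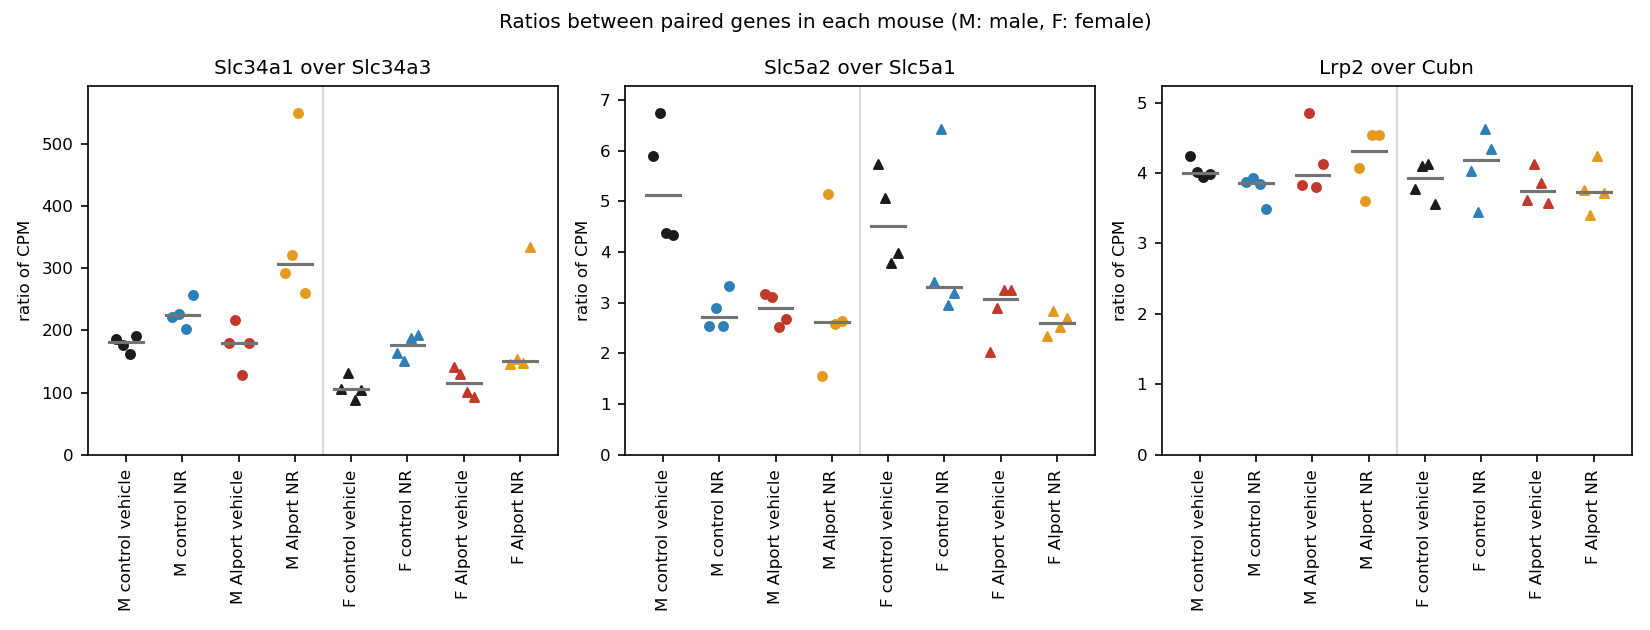
CPM ratios of Slc34a1 to Slc34a3, Slc5a2 to Slc5a1 and Lrp2 to Cubn by mouse (points) in the 8 groups, with group medians (lines). For Slc34a1 over Slc34a3 the NR mice lie above the vehicle mice of the same sex and genotype in all 4 settings. For Slc5a2 over Slc5a1 the vehicle-treated Alport mice lie below the vehicle-treated controls in each sex, as do the NR-treated controls in males only. Lrp2 over Cubn stays between 3.40 and 4.85.

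Set against Slc34a1, Slc34a3 was lower with NR in all 4 combinations of sex and genotype. The CPM ratio of Slc34a1 to Slc34a3 was 161 to 192 with vehicle and 202 to 257 with NR in male controls (227 to 257 without the libraries labelled 1 and 3), and 87.5 to 132 and 150 to 192 in female controls. In Alport mice it was 128 to 217 and 260 to 549 in males, and 92.7 to 141 and 146 to 334 in females. The 4 vehicle and 4 NR mice did not overlap in any of the 4 settings. This pair was singled out after its values were seen, so the ratios are a description without a test. The ratio of Slc7a7 to Slc3a2 was also lower with NR, with groups apart, outside female Alport mice. With vehicle and NR it was 1.21 to 1.30 and 0.622 to 0.886 in male controls (0.622 and 0.722 in NR mice 2 and 4). It was 0.806 to 0.952 and 0.495 to 0.755 in female controls, and 0.771 to 0.918 and 0.296 to 0.754 in male Alport mice. In female Alport mice it overlapped, at 0.603 to 0.861 and 0.515 to 0.796. Relative to the 20 enzymes, Slc34a3 was lower with NR on the log2 scale, by 0.59 in male controls (0.61 without both doubted libraries). It was lower by 0.83 in female controls, 1.12 in male Alport mice and 0.70 in female Alport mice, with the groups apart in each. These differences reuse the Slc34a3 values of the ratios. Other members were also lower with NR relative to the enzymes, with the groups apart. They were Cubn in female controls (−0.40), Cubn and Slc3a1 in female Alport mice (−0.29 and −0.36) and Slc5a2 in male Alport mice (−0.23).

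Whether NR acted differently in Alport and control mice was tested as an interaction. It called 0 of 15800 genes in males and 0 of 16064 in females (0% in each), with 1395 and 1484 genes at an unadjusted p under 0.05, and DESeq2 called 20 and 30 genes, none a member. Without Alport NR mouse 1 of the sex concerned, edgeR called 784 genes in males and 33 in females, again none a member. The largest member values were for Slc5a1 in males (−0.70, 95% interval −1.33 to −0.07, adjusted p = 0.535) and for Slc6a19 in females (0.88, 0.10 to 1.66, adjusted p = 0.504). Without both doubted libraries edgeR called 0 of 16397 genes in males, and the male value for Slc5a1 was −0.54 (adjusted p = 0.975).

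NR-treated Alport mice were last set against vehicle-treated controls, a comparison that shares its controls with the first. In males 5 of the 10 genes were lower, where 6.75% of 15077 genes were called lower and 21.1% in either direction. They were Slc34a3 (−1.90, adjusted p = 0.0385), Slc6a19 (−1.19, adjusted p = 0.0248), Cubn (−1.12, adjusted p = 0.0433), Slc5a12 (−1.01, adjusted p = 0.0169) and Slc3a1 (−0.89, adjusted p = 0.0322). Lrp2 (−1.09, adjusted p = 0.0519) and Slc34a1 (−1.12, adjusted p = 0.13) were not called, although 9 of the 10 genes had all 4 NR-treated Alport males below all 4 controls, beside 17.8% of genes. The count was 0 without control vehicle mouse 2, 1 without control vehicle mouse 1 or 3, 2 without control vehicle mouse 4 or Alport NR mouse 1, 3 without Alport NR mouse 3, and 7 without Alport NR mouse 2 or 4.

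In females 8 of the 10 genes were lower in NR-treated Alport mice than in vehicle-treated controls, where 11.4% of 15381 genes were called lower and 23.0% in either direction. Cubn (−1.31, adjusted p = 0.000106), Lrp2 (−1.34, adjusted p = 0.000213) and Slc34a3 (−1.56, adjusted p = 0.00391) were among them, as was Slc6a19 (−0.84, adjusted p = 0.0362), whose call was kept in 1 of 8 fits that left out a mouse. Slc5a1 (−0.15, adjusted p = 0.247) and Slc7a7 (−0.44, adjusted p = 0.105) were not called.

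The marker lists moved in this comparison as well. Of 10 injury genes 9 rose in each sex (medians 3.47 in males and 1.74 in females), of 9 fibroblast genes 7 (2.48 and 1.27), and of the immune genes tested 7 of 10 in males and 4 of 12 in females (2.81 and 1.61). The enzymes had medians of −0.88 and −0.70, with 3 of 20 fallen in males and 14 of 20 in females. The part of these lists in the members' values was not tested.

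Across the 8 groups the highest group mean exceeded the lowest by 1.52 times for Slc5a1 and by 4.98 times for Slc34a3, the lowest and highest such ratios of the 10. For Slc34a3 the order ran from female control vehicle through male control vehicle, female control NR, female Alport vehicle, male control NR, male Alport vehicle and female Alport NR to male Alport NR, and each group overlapped its neighbour. For Slc5a1 all 7 neighbouring pairs overlapped as well. Without both doubted libraries the order for Slc34a3 was the same, and for Slc5a1 the highest group was female control NR in place of male control NR. For Cubn the 1 neighbouring pair apart was female control NR and female Alport vehicle.

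Some counts may include reads of neighbours. In GENCODE M21 on mm10 the exons of Slc5a2 (chr7:128265657-128272430) share 597 bases with BC017158, those of Slc34a1 (chr13:55398187-55415592) 545 bases with Pfn3, those of Slc3a1 (chr17:85028376-85064236) 601 bases with Prepl and those of Slc7a7 (chr14:54369442-54417780) 230 bases with Oxa1l. Whether counting used strand is not given in the sources used here. These neighbours averaged 32.9, 34.3, 139 and 73.8 CPM over the 32 mice, and Pfn3 (−0.95 and −0.56), Prepl (−0.66 and −0.60) and Oxa1l (−0.38 and −0.36) were also lower in Alport mice. The exons of Cubn (chr2:13276338-13491813) share 368 bases with Gm13270, and those of Slc34a3 (chr2:25228898-25234364), Slc6a19 (chr13:73679745-73704865), Slc5a1 (chr5:33104219-33162870), Slc5a12 (chr2:110597298-110647779) and Lrp2 (chr2:69424340-69586065) share none.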

How the data were processed

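The authors processed the reads of the 32 libraries with BioJupies and deposited raw counts per gene symbol. The labels' processing notes name mm10, and the aligner, annotation and strand setting are not given in the sources used here. A deposited log10(CPM + 1) table was not used. Of the 32544 genes, 7938 had 0 counts in every mouse.

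Each comparison was fitted to its own mice with edgeR 4.0.16 (R 4.3.3): genes kept by filterByExpr with a count minimum of 10, TMM scaling (factors 0.829 to 1.25), robust quasi-likelihood tests, Benjamini-Hochberg adjustment over all genes tested and a threshold of 0.05. CPM used TMM-scaled library sizes, log2 CPM a prior count of 2, and CPM per kilobase the length of 1 GENCODE M21 transcript. Intervals are 95%. Alternatives used DESeq2 1.42.0, limma-voom 3.58.1, 1 fit of all 32 mice, RLE factors, other filters, a replicate block and fits without 1 mouse. Leaving out control libraries with Col4a3 in the Alport range was added after seeing the data.

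The 10 genes and the gene lists were chosen with earlier results of these data known. All 10 members are named, and other genes where they are a known partner, accessory protein or regulator of a member, or were the genes most alike by Pearson r of log2 CPM. Some genes that this rule takes in are not reported here. A few genes that lead a marker list were named after their values were seen. Each group is 4 separate mice, so p-values measure the spread between mice. Same-numbered mice were checked for pairing over 36 pairs: deviations from the group means correlated at −0.26 to 0.446, and 7 pairs passed 0.1. No comparison had every pair above it, and numbers were not used to pair mice in the main fits. The check cannot exclude that some mice of a number shared a litter or batch. No library pair within a group agreed within sampling noise (48 pairs, chi-square per degree of freedom 7.96 to 172). On simulated counts with 200 changed genes, the test recovered 81% of changes of 1 on the log2 scale for Alport against control males (15286 genes), 56% for NR in Alport males (15500 genes) and 73% for NR in control males (14696 genes). It recovered 55% for the sex by genotype interaction (16152 genes). False calls made up 3.85%, 9.21%, 5.08% and 2.13% of the calls, in that order.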

Additional observations from a re-analysis of the deposited data

Results flagged for a closer look

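In 3 of 80 sets of 4 mice (10 genes in 8 groups), 1 mouse stood apart from the other 3 by Dixon's test of the gap over the range at the 95% level, and chance gives about 1 in 20. Slc5a1 was highest in male Alport vehicle mouse 4 (ratio 0.892, 125 CPM). Slc34a3 was lowest in female control vehicle mouse 2 (ratio 0.867, 42.1 CPM). Slc7a7 was lowest in male control vehicle mouse 4 (ratio 0.836, 207 CPM).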

How the results depend on the processing

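Of 2060 recomputed log2 differences of the 10 genes over 12 comparisons, 1892 kept their direction and side of the threshold, 67 lost a call, 25 gained one and 76 changed sign, and none that changed sign was called before or after. The Alport against control calls on vehicle were 9 in males under every setting run and 8 or 9 in females. For NR in control males the count of members called was 4 with DESeq2, 0 in the fit of all 32 mice, 1 with the replicate block, 1 without the controls whose Col4a3 overlapped Alport mice and 1 to 3 without a mouse, against 2. For NR in control females it was 3 with DESeq2, 2 with limma-voom, 0 in the fit of all 32 mice, 0 with the replicate block and 0 to 3 without a mouse, against 1. For NR-treated Alport males against vehicle controls it was 9 with DESeq2, 9 in the fit of all 32 mice and 0 to 7 without a mouse, against 5, and for the sexes 0 in the fit of all 32 mice and 2 to 3 without a mouse, against 3. With 4 mice a group and a low count for Slc34a3 (53 in the lowest mouse), small differences could not be resolved, and the cause of these shifts was not tested.

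Sign changes fell on values near 0. For NR in Alport males, limma-voom gave −0.0237 for Slc7a7, −0.0242 for Lrp2 and −0.022 for Cubn, a minimum of 10 counts in every mouse gave −0.00755 for Slc7a7, and the replicate block gave −0.0525 for Slc7a7, −0.0233 for Slc3a1, −0.0528 for Lrp2 and −0.0675 for Cubn. The block gave 0.000322 for Lrp2 in the sex by genotype interaction, the fit of all 32 mice gave 0.00106 for Slc34a3 in the male NR by genotype interaction, and leaving out the Col4a3-overlapping controls gave 0.00471 for Slc3a1 and 0.00503 for Cubn with NR in control males.

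Without 1 mouse, values for NR in Alport males ran from −0.375 to 0.264 (Slc34a1), −0.0248 to 0.381 (Slc6a19), −0.214 to 0.163 (Slc7a7), −0.139 to 0.181 (Slc3a1), −0.236 to 0.271 (Lrp2) and −0.148 to 0.298 (Cubn). For NR in Alport females they ran from −0.0154 to 0.102 (Slc5a1), −0.0314 to 0.194 (Slc34a1) and −0.0805 to 0.186 (Slc7a7), and in control females from −0.0184 to 0.0846 (Slc5a1), −0.177 to 0.0355 (Slc34a1) and −0.00268 to 0.0742 (Slc3a1). NR-treated Alport males against vehicle controls gave −0.405 to 0.0406 (Slc5a1), and males against females −0.0906 to 0.173 (Slc6a19) and −0.00596 to 0.184 (Slc7a7). The sex by genotype interaction gave −0.00408 to 0.239 (Slc5a2), −0.27 to 0.0348 (Slc5a12), −0.239 to 0.0647 (Slc34a3), −0.00136 to 0.306 (Slc6a19), −0.154 to 0.149 (Lrp2) and −0.217 to 0.0395 (Cubn). The NR by genotype interaction gave −0.0644 to 0.436 (Slc5a2), −0.442 to 0.332 (Slc34a3) and −0.0128 to 0.376 (Slc7a7) in males, and −0.0516 to 0.0908 (Slc5a1), −0.0117 to 0.417 (Slc34a3) and −0.0788 to 0.193 (Lrp2) in females.

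Among the settings other than leaving out a mouse, counts over all genes moved by more than 1.5 times to, for NR in Alport males, 62 with DESeq2 and 77 in the fit of all 32 mice against 0, and in Alport females 728 and 241 against 72. For NR in control males they were 1654 with DESeq2, 413 with the replicate block and 127 without the Col4a3-overlapping controls against 654, and in control females 1493 with DESeq2, 413 with the block and 20 in the fit of all 32 mice against 986. The fit of all 32 mice gave 6818 against 3186 for NR-treated Alport males, 2795 against 4719 for the sexes and 5 against 80 for the sex by genotype interaction, where DESeq2 gave 260 and limma-voom 46. The block gave 2313 against 3535 for NR-treated Alport females. The NR by genotype interaction had 20 with DESeq2 and 1 in the fit of all 32 mice in males, and 30 with DESeq2 and 1 without a filter in females, against 0. Leaving out 1 mouse gave 0 to 375 genes for NR in Alport males, 9 to 163 in Alport females, 111 to 1863 in control males and 446 to 857 in control females. It gave 1423 to 3952 for NR-treated Alport males and 2227 to 4788 for females against vehicle controls, 23 to 101 for the sex by genotype interaction, and 0 to 784 in males and 0 to 33 in females for the NR by genotype interaction. For Alport against control on vehicle and for the sexes no mouse moved the count by more than 1.5 times.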
